A study of Homo sapiens with 18 samples.

Results

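Claudins, keratins and desmosomal cadherins were followed in OVCAR-3 cells, an established line of high-grade serous ovarian carcinoma, after exposure to the BET bromodomain inhibitors (BETi) i-BET858 or i-BET151. The genes were taken by name: every protein-coding gene in the count tables whose symbol is CLDN, KRT, DSG or DSC followed by a number and at most 1 letter. This gave 86 of 58825 genes: 24 claudins, 29 type I keratins, 26 type II keratins, 4 desmogleins and 3 desmocollins. Cells received 1 µM i-BET858, 1 µM i-BET151 or the vehicle DMSO for 4 or 24 h. Each of the 6 conditions had 3 biological replicates, so that poly-A RNA of 18 libraries was sequenced. All libraries came from a single cell line at 1 dose of each drug.

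Claudins are membrane proteins that form the strands of tight junctions. Some seal the space between epithelial cells and others leave pores for chosen ions. Keratins are the intermediate filaments of epithelia and assemble as obligate pairs of a type I and a type II chain, with KRT8 and KRT18 the pair of simple epithelia. Desmogleins and desmocollins are the cadherins of desmosomes, the junctions to which keratin filaments are anchored. BET proteins read acetylated histones and promote transcription, and BETi displace them from chromatin.

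Library totals ranged from 27323969 to 46299994 counts (median 32267434), and a count of 3, the limit that a count of 0 allows, corresponded to 0.0648 to 0.110 CPM of the unscaled library total. Levels given as CPM elsewhere are relative to the TMM-adjusted library total. Replicate 3 stood apart in all 6 conditions, with 17817 to 20642 genes detected against 23674 to 24947 in replicates 1 and 2. The summed level of 7 serous ovarian markers, among them PAX8, WT1 and MUC16, was 1379 to 2186 CPM. The fibroblast list summed to 21.6 to 49.9 CPM, nearly all of it COL1A1 (21.2 to 45.9 CPM), the endothelial list to 0.583 to 5.29 CPM and the immune list to 0.0598 to 3.25 CPM. DCN, COL3A1, CD3E, PTPRC and PECAM1 stayed under 1 CPM in all 18 libraries.

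Of the 86 genes, 73 had a count in at least 1 library, 27 in all 18, and 13 (2 claudins, 10 keratins and DSG4) in none. There were 35 genes with enough counts to be tested at 4 h and 32 at 24 h. The 51 genes tested at neither time had at most 29 counts (0.854 CPM) in any library. Within each family the per-length levels (TPM, over all annotated exons of a gene) were led by a few members. KRT8 had the highest mean (3036 TPM over the 18 libraries) and ranked 23rd of all genes, followed by KRT19 (1939 TPM), KRT18 (1543 TPM), CLDN3 (756 TPM), KRT7 (655 TPM) and CLDN6 (572 TPM). Among the desmosomal cadherins, DSC2 (60.3 TPM) and DSG2 (60.0 TPM) were almost level, DSC3 had a mean of 14.5 TPM, and DSG1 and DSG3 had at most 2 counts in a library. Keratins known from stratified epithelia or their response to wounding lay lower, at 89.4 TPM for KRT4, 49.4 TPM for KRT17, 46.1 TPM for KRT10, 19.2 TPM for KRT6A and 1.13 TPM for KRT5.

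CLDN1 and CLDN16 lie head to head on chromosome 3 (GRCh38). CLDN1 (ENSG00000163347.6, chr3:190305707-190322446, minus strand) and CLDN16 (ENSG00000113946.3, chr3:190322541-190412138, plus strand) have 94 bases between their outermost annotated starts. That interval is shown because both genes fell at 24 h, together with the same length upstream of KRT4 (chr12:52806549-52814116, minus strand), which was called at 24 h with i-BET151 and not with i-BET858, and of DSG2 (chr18:31498177-31549008, plus strand), which had no called change. The bases are RefSeq's for GRCh38.p14, read 5′ to 3′ on the strand of the named gene and ending 1 base before its start. Capitals mark GGGCGG, on either strand, in the CLDN1 and DSG2 sequences and TATAA, on either strand, in that of KRT4.
CLDN1, chr3:190322447-190322540: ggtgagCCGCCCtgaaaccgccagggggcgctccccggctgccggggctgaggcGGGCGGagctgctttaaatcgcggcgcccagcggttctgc
KRT4, chr12:52814117-52814210: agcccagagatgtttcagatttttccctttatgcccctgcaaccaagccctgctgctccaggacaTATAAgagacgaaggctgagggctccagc
DSG2, chr18:31498083-31498176: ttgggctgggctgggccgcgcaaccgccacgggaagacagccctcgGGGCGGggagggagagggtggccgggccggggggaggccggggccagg
The interval between CLDN1 and CLDN16 held GGGCGG at 2 places and was 74.5% G or C. GGGCGG was present in 30.4% and TATAA in 8.60% of all 35116 RefSeq windows of this length. Promoter entries existed for 59 of the 86 genes, and of their 72 windows 14 held GGGCGG and 29 held TATAA. These matches describe the letters of the window and do not show that a factor binds there. Gene-level counts do not show which annotated start of CLDN16 was used.

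CLDN1, a sealing claudin of many epithelia, was the claudin that fell with both drugs and at both times. At 4 h its levels were 168, 195 and 193 CPM with DMSO, 110, 121 and 126 CPM with i-BET858 and 84.0, 87.0 and 94.6 CPM with i-BET151. At 24 h they were 110, 131 and 149 CPM with DMSO, 32.8, 31.4 and 34.8 CPM with i-BET858 and 31.9, 34.5 and 44.9 CPM with i-BET151. No treated library overlapped the DMSO libraries of its time. At 24 h i-BET858 gave a log2 fold change of −1.98 ± 0.15 (SE; edgeR's quasi-likelihood test, Benjamini-Hochberg adjusted p = 4.33e-06), and i-BET151 one of −1.81 ± 0.15 (adjusted p = 1.40e-05). At 4 h they were −0.64 ± 0.11 (adjusted p = 9.72e-04), which is less than 2-fold, and −1.07 ± 0.11 (adjusted p = 1.05e-04). In these bulk libraries, fewer cells expressing a gene and less RNA per cell cannot be told apart.

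CLDN16, known from the kidney, where it takes part in paracellular magnesium reabsorption, showed the steepest fall among the claudins tested, and only the 24 h fall passed the test. Its 4 h levels varied widely between replicates: 58.5, 96.4 and 21.6 CPM with DMSO, 47.3, 78.9 and 18.9 CPM with i-BET858 and 43.9, 50.7 and 26.7 CPM with i-BET151. The groups overlapped, with replicate 3 lowest in each. At 24 h DMSO libraries had 63.5, 69.0 and 37.2 CPM, against 6.98, 6.08 and 3.83 CPM with i-BET858 and 7.18, 6.93 and 6.61 CPM with i-BET151. Within replicate numbers, the i-BET858 libraries were 9.09, 11.3 and 9.71 times lower than their DMSO counterparts. The log2 fold changes were −3.32 ± 0.27 (adjusted p = 6.18e-06) and −3.03 ± 0.26 (adjusted p = 1.77e-05). The 4 h changes of −0.28 ± 0.53 and −0.54 ± 0.53 did not pass (adjusted p = 0.736 and 0.554).

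CLDN10, which forms ion pores, was low throughout and also fell at 24 h. DMSO libraries had 7.25, 6.65 and 10.2 CPM, i-BET858 libraries 3.90, 3.50 and 1.47 CPM and i-BET151 libraries 3.13, 3.04 and 4.46 CPM. Treated and DMSO libraries did not overlap. At 4 h the levels had been 8.20, 8.34 and 8.20 CPM with DMSO, 10.6, 11.7 and 8.68 CPM under i-BET858 and 8.77, 7.46 and 7.01 CPM under i-BET151. The 24 h log2 fold changes were −1.43 ± 0.35 (adjusted p = 0.00698) and −1.18 ± 0.35 (adjusted p = 0.0225). With i-BET858 it was −0.91 in replicates 1 and 2 alone, under 2-fold, and with i-BET151 it lost its adjusted p when DMSO replicate 3 or i-BET151 replicate 1 or 2 was left out (up to 0.0853).

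Of the 3 claudins with the highest TPM, CLDN6 rose and CLDN3 fell with both drugs at 24 h and CLDN4 rose with i-BET858, all by less than 2-fold. CLDN6, an embryonic claudin that is present again in some tumours, had 193, 197 and 194 CPM with DMSO at 24 h. Under i-BET858 it reached 352, 379 and 359 CPM, under i-BET151 323, 291 and 308 CPM. These groups were all separate from each other. The rises of 0.90 ± 0.08 (adjusted p = 1.29e-05) and 0.66 ± 0.08 (adjusted p = 1.65e-04) on the log2 scale stayed under 2-fold. The 4 h levels of CLDN6 were 218, 163 and 183 CPM with DMSO, 284, 239 and 268 CPM under i-BET858 and 225, 222 and 202 CPM under i-BET151, so that the i-BET858 libraries lay above the others. It rose by 0.49 ± 0.12 under i-BET858 at that time (adjusted p = 0.0108; 0.34 and 0.0601 when scaled to total library size). Under i-BET151 its 4 h change of 0.20 ± 0.12 did not pass (adjusted p = 0.314). CLDN6 shares exon positions with TNFRSF12A on the other strand.

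CLDN4, a claudin of tight epithelial barriers, was higher with i-BET858 at both times. At 24 h it had 257, 237 and 313 CPM with DMSO, 361, 355 and 373 CPM with i-BET858 and 269, 256 and 293 CPM with i-BET151. The i-BET858 libraries lay above all others, and the remaining groups overlapped. The same held at 4 h, with 229.9, 211 and 213 CPM for DMSO, 313, 282 and 294 CPM for i-BET858 and 232, 228 and 218 CPM for i-BET151. Its log2 fold change with i-BET858 was 0.44 ± 0.09 at 4 h (adjusted p = 0.00379) and 0.43 ± 0.11 at 24 h (adjusted p = 0.00910). For i-BET151 the values were 0.05 ± 0.09 and 0.02 ± 0.11. CLDN3, whose gene neighbours that of CLDN4 on chromosome 7 with 29271 bases between them, went the other way at 24 h. It had 290, 272 and 385 CPM with DMSO, 235, 236 and 243 CPM with i-BET858 and 215, 193 and 260 CPM with i-BET151, so that no treated library reached the DMSO range. Its 4 h groups overlapped, at 269.5, 206 and 238 CPM for DMSO, 250.2, 235 and 283 CPM for i-BET858 and 204, 199 and 238 CPM for i-BET151. The 24 h log2 changes were −0.41 ± 0.14 (adjusted p = 0.0420) and −0.50 ± 0.14 (adjusted p = 0.0198), under 2-fold.

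CLDN5, the main claudin of blood vessel endothelium, was near the limit of detection and rose at 24 h, when it had 13, 4 and 4 counts with DMSO, 67, 48 and 38 under i-BET858 and with i-BET151 36, 34 and 25. Relative to the library totals, the summed counts were 5.42 times higher under i-BET858 (95% exact interval 3.42 to 9.01, counting error only) and 3.79 times higher under i-BET151 (2.35 to 6.41). The fitted log2 changes were 2.51 ± 0.56 (adjusted p = 0.00415) and 1.96 ± 0.55 (adjusted p = 0.0191). The latter's adjusted p rose to 0.0784 without DMSO replicate 2, and it was 0.0677 without i-BET151 replicate 2 and 0.0501 without i-BET151 replicate 1. With 1 library left out, the 24 h log2 changes ranged from 2.26 to 3.24 under i-BET858 and from 1.71 to 2.69 under i-BET151. At 4 h CLDN5 had 2, 9 and 16 counts with DMSO, 22, 33 and 18 under i-BET858 and 14, 23 and 0 under i-BET151. The fitted 4 h changes of 1.59 ± 1.098 and 0.71 ± 1.11 did not pass (adjusted p = 0.314 and 0.730), and in replicates 1 and 2 only both were called (2.61 and 2.08, adjusted p = 0.00434 and 0.0296). The other endothelial markers did not rise with it at 24 h: PECAM1, CDH5 and VWF summed to 3.11 to 4.86 CPM in the 24 h DMSO libraries, 1.60 to 1.98 CPM under i-BET858 and 0.583 to 3.98 CPM under i-BET151.

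KRT8 and KRT18, the simple-epithelial pair, moved apart at 24 h. KRT18 (ENSG00000111057.11, chr12:52948871-52952906, plus strand) had 1682, 1584 and 1511 CPM with DMSO, 642, 638 and 581 CPM with i-BET858 and 808, 794 and 740 CPM with i-BET151. The 3 groups did not overlap, and i-BET858 was lowest. Its log2 fold changes were −1.36 ± 0.09 (adjusted p = 1.47e-06) and −1.03 ± 0.09 (adjusted p = 1.53e-05), the latter −0.99, just short of 2-fold, when i-BET151 replicate 3 or DMSO replicate 1 was left out. At 4 h KRT18 had 1523, 1316 and 1082 CPM with DMSO, 1742, 1542 and 1472 CPM under i-BET858 and 1405, 1399 and 1358 CPM under i-BET151, and the groups overlapped. Its changes of 0.28 ± 0.12 and 0.09 ± 0.12 did not pass (adjusted p = 0.111 and 0.700; the first 0.00556 with the replicate number as a blocking factor).

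KRT8 (ENSG00000170421.12, chr12:52897187-52949954, minus strand) took 0.366 to 0.701% of all counts of a library. At 24 h it had 6205, 5842 and 5365 CPM with DMSO, 4153, 4346 and 3932 CPM with i-BET858 and 4275, 4060 and 3842 CPM with i-BET151. Both drugs lay below DMSO and overlapped each other. The falls of −0.49 ± 0.09 (adjusted p = 0.00153) and −0.52 ± 0.09 (adjusted p = 0.00147) were smaller than those of KRT18. At 4 h KRT8 had been higher with i-BET858, at 7237, 7068 and 6761 CPM against 6048, 5244 and 4724 CPM with DMSO (6019, 5669 and 5724 CPM with i-BET151). This rise of 0.40 ± 0.10 (adjusted p = 0.00902) fell to 0.24 (adjusted p = 0.0953) when libraries were scaled to their totals.

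The ratio of KRT18 to KRT8 in TPM was chosen after these values were seen. It was 0.608, 0.608 and 0.632 in the 24 h DMSO libraries, 0.346, 0.329 and 0.331 under i-BET858 and 0.424, 0.439 and 0.432 under i-BET151. The groups were separate, with i-BET151 between the others. At 4 h the 9 ratios lay between 0.488 and 0.565 and the groups overlapped. With 3 libraries a group an exact two-sided permutation test cannot go below 0.1, the value reached in each 24 h comparison (0.600 after adjustment over 18 such tests). The annotated 5′ ends of KRT8 and KRT18 overlap on opposite strands, and the strand setting of the counting is not known, so that some reads of one may have been counted for the other or for neither.

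**Figure D1:**
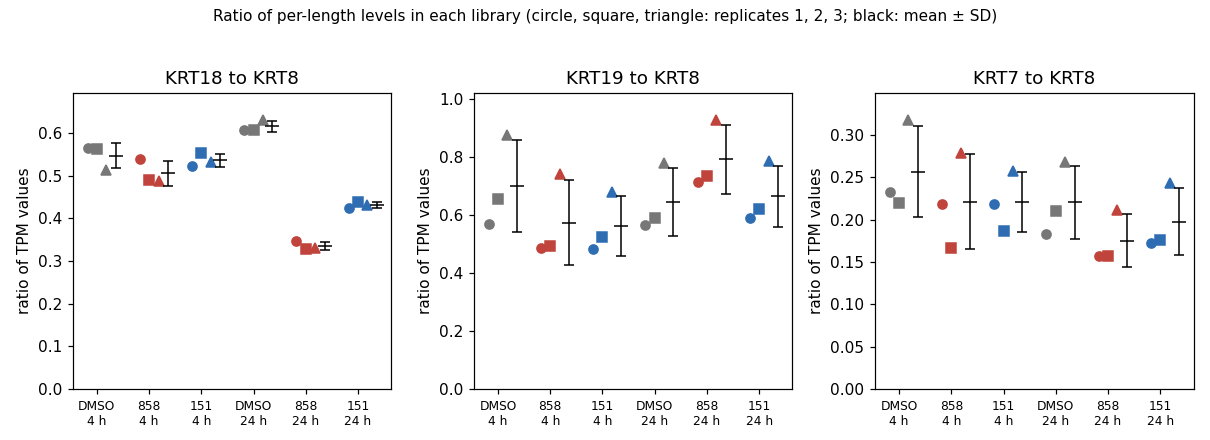
Ratios of TPM values in each of the 18 libraries for KRT18, KRT19 and KRT7, each divided by KRT8 (vertical axes from 0, no unit). Colours mark DMSO (grey), i-BET858 (red) and i-BET151 (blue), symbols the replicate number, and black bars the mean ± SD of 3 libraries. The KRT18 ratio separates the 3 conditions at 24 h, with means of 0.616, 0.336 and 0.431, while the ratios of KRT19 and KRT7 overlap between groups. Within replicate numbers at 24 h, the KRT19 ratio was higher with i-BET858 (0.713, 0.734 and 0.929) than with DMSO (0.565, 0.588 and 0.779). The KRT7 ratio was lower (0.157, 0.157 and 0.212 against 0.183, 0.210 and 0.2675). Both ratios moved the same way in each replicate, by less, with i-BET151.

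KRT7, the type II keratin of glandular and ductal epithelia, followed KRT8 and KRT18. It had 661, 714 and 834 CPM with DMSO at 24 h, 379, 396 and 483 CPM with i-BET858 and 429, 416 and 543 CPM with i-BET151. No treated library reached the lowest DMSO library. At 4 h KRT7 had 818, 669.8 and 873 CPM with DMSO, 917, 685 and 1097 CPM under i-BET858 and 763, 615 and 855 CPM under i-BET151. Its 24 h log2 fold changes were −0.81 ± 0.14 (adjusted p = 8.54e-04) and −0.67 ± 0.14 (adjusted p = 0.00367), under 2-fold. KRT19, the smallest keratin and by TPM the highest type I chain here, had 1191, 1167 and 1418 CPM with DMSO at 24 h, 1005, 1083 and 1240 CPM with i-BET858 and 855, 857 and 1024 CPM with i-BET151. The 4 h levels of KRT19 were 1168, 1164 and 1405 CPM, 1195, 1186 and 1703 CPM, and 988, 1012 and 1321 CPM in the same order. At 4 h the groups of KRT7 and KRT19 overlapped. Of the 24 h changes of KRT19, only the i-BET151 change of −0.46 ± 0.12 passed (adjusted p = 0.0120), against −0.18 ± 0.12 with i-BET858 (adjusted p = 0.252; 0.0333 with the blocking factor). The TPM of the 55 keratins summed to 8803 ± 806 (SD, n = 3) with DMSO at 24 h, 5556 ± 166 with i-BET858 and 5661 ± 87.3 with i-BET151. At 4 h the sums were 8735 ± 565, 8605 ± 218 and 7851 ± 275.

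**Figure D2:**
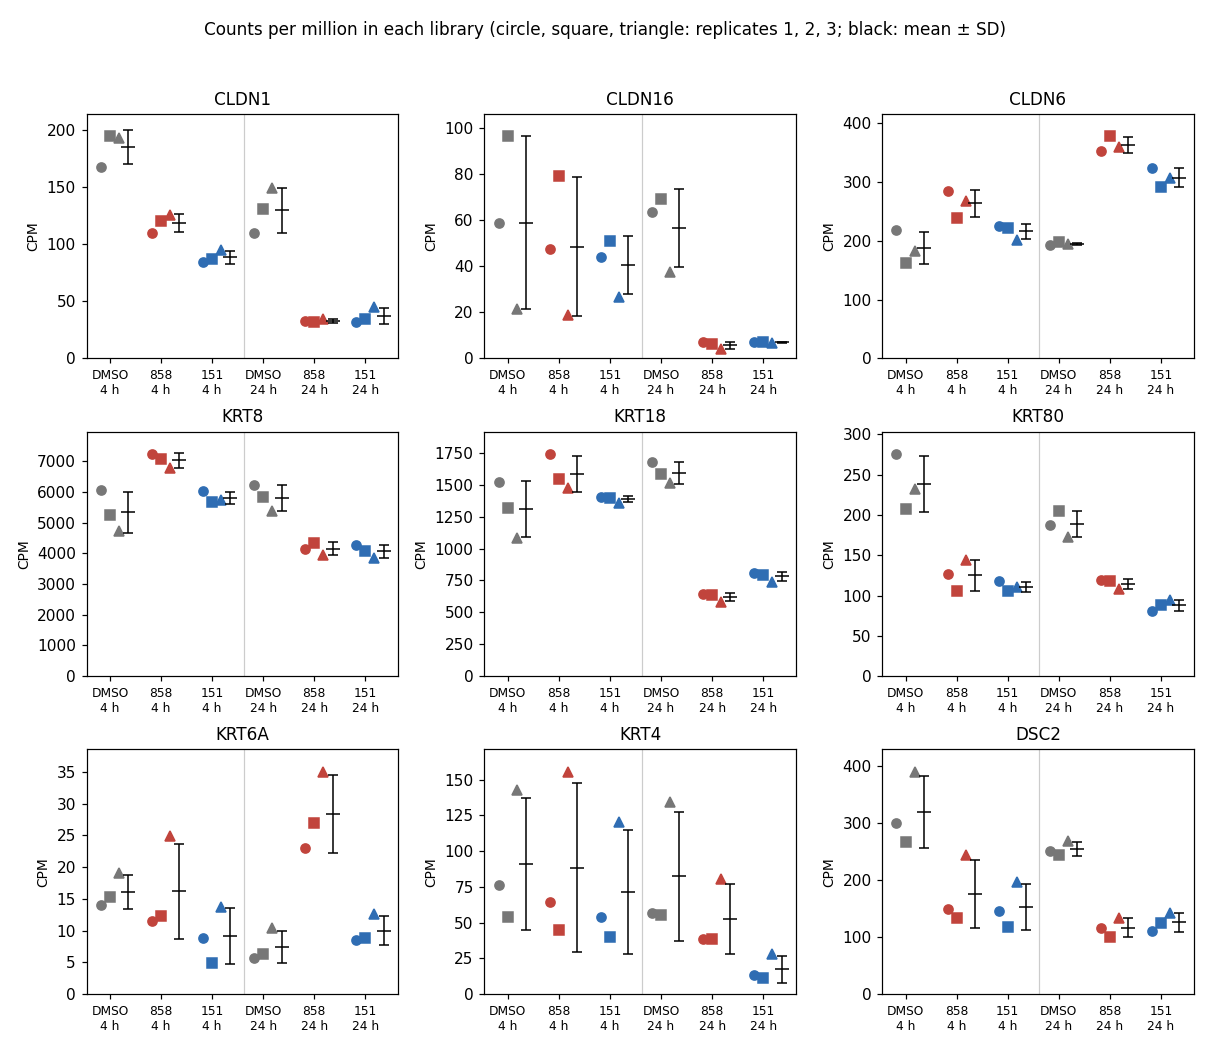
CPM of 9 genes in each of the 18 libraries (vertical axes from 0), with DMSO in grey, i-BET858 in red and i-BET151 in blue, the replicate number as the symbol, and the mean ± SD of 3 libraries in black. CLDN1 and KRT80 are lower at both times, KRT18 and CLDN16 fall at 24 h with both drugs, CLDN6 rises, KRT6A rises with i-BET858 and KRT4 falls most with i-BET151.

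KRT6A, a keratin that wounded and hyperproliferative epithelia induce, was the one keratin called higher. At 24 h it had 5.63, 6.37 and 10.4 CPM with DMSO, 23.0, 27.05 and 35.1 CPM with i-BET858 and 8.59, 8.87 and 12.6 CPM with i-BET151. The i-BET858 libraries lay above all others. Within replicate numbers, i-BET858 exceeded DMSO 4.08, 4.24 and 3.38-fold. The log2 fold change was 1.93 ± 0.26 (adjusted p = 1.89e-04). With i-BET151 it was 0.42 ± 0.26 (adjusted p = 0.240; 0.0118 with the blocking factor). At 4 h it had 14.0, 15.3 and 19.2 CPM with DMSO, 11.5, 12.3 and 24.9 CPM with i-BET858 and 8.90, 4.94 and 13.8 CPM with i-BET151. The i-BET151 libraries lay below all DMSO libraries, and those of i-BET858 overlapped them. The 4 h value with i-BET858 was 0.01 ± 0.36. For i-BET151 it was −0.81 ± 0.37 (adjusted p = 0.171; −0.90 and 0.00344 with the blocking factor), and KRT6A was called lower at −1.22 (adjusted p = 0.0411) without i-BET151 replicate 3 and −1.08 (adjusted p = 0.00585) in replicates 1 and 2 only. KRT6A (chr12:52487176-52493257, minus strand) has the near-identical copies KRT6B and KRT6C, which had at most 14 and 9 counts in a library. Reads that match several copies cannot be placed with certainty, so the counts of KRT6A are uncertain.

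KRT16 and KRT17, the type I partners of KRT6A, went the opposite way. KRT16 at 24 h had 3.64, 3.58 and 2.65 CPM with DMSO, 0.589, 0.645 and 1.03 CPM with i-BET858 and 0.522, 0.583 and 0.508 CPM with i-BET151. Treated libraries lay below all DMSO libraries. Their log2 fold changes were −2.12 ± 0.36 (adjusted p = 7.85e-04) and −2.61 ± 0.37 (adjusted p = 3.81e-04). At 4 h KRT16 was already lower with i-BET151, at 2.51, 2.38 and 0.856 CPM against 5.51, 6.57 and 5.77 CPM with DMSO (−1.64 ± 0.36, adjusted p = 0.00978), while with i-BET858, at 3.41, 3.04 and 3.73 CPM, the change was −0.81 ± 0.35 (adjusted p = 0.103; 0.0465 with the block).

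KRT17 had 45.0, 48.6 and 39.6 CPM with DMSO at 24 h, 19.1, 25.1 and 25.2 CPM with i-BET858 and 14.3, 11.8 and 14.0 CPM with i-BET151. The 3 groups were separate, with i-BET151 lowest. i-BET858 changed it by −0.94 ± 0.14 on the log2 scale (adjusted p = 4.22e-04), just under 2-fold, and i-BET151 by −1.73 ± 0.15 (adjusted p = 1.67e-05). The i-BET858 value was past 2-fold when scaled to library totals (−1.04), in replicates 1 and 2 only (−1.09) and without i-BET858 replicate 2 (−1.004). At 4 h KRT17 had 44.9, 41.2 and 50.6 CPM with DMSO, 41.5, 57.0 and 71.5 CPM with i-BET858 and 32.7, 57.2 and 47.5 CPM with i-BET151. These groups overlapped, and the log2 changes were 0.32 ± 0.22 and 0.01 ± 0.22. KRT16 and KRT17 also have similar copies in the genome, so their counts carry the same uncertainty.

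KRT4, a keratin of the upper layers of mucosal stratified epithelia, depended strongly on the replicate number. At 24 h it had 56.9, 55.5 and 135 CPM with DMSO, 38.3, 38.4 and 80.7 CPM with i-BET858 and 13.0, 11.04 and 28.3 CPM with i-BET151. Replicate 3 was highest in each group, and i-BET151 lay below all other libraries. Within replicate numbers, i-BET151 was 4.38, 5.03 and 4.75 times below DMSO, and i-BET858 was 1.49, 1.45 and 1.67 times below. For i-BET151 the log2 fold change was −2.24 ± 0.47 (adjusted p = 0.00376), for i-BET858 −0.65 ± 0.44 (adjusted p = 0.271; 8.59e-05 with the block). At 4 h KRT4 had 76.1, 53.8 and 143 CPM with DMSO, 64.7, 44.8 and 156 CPM with i-BET858 and 53.6, 40.1 and 121 CPM with i-BET151, with replicate 3 again highest and the groups overlapping. Within replicate numbers at 4 h, KRT4 was 1.42, 1.34 and 1.18 times lower with i-BET151. With i-BET858 it was lower in 2 replicates and higher in 1. KRT13, the usual type I partner of KRT4, named after its values were seen, had 0.654, 0.448 and 0 CPM with DMSO at 24 h, 0.916, 1.88 and 2.77 CPM with i-BET858 and 0.348, 0.614 and 0.209 CPM with i-BET151. The i-BET858 libraries were above the others, at 2.32 ± 0.91 on the log2 scale (adjusted p = 0.0642). KRT13 was called with the block (2.52, adjusted p = 0.0363), with DESeq2 (2.33, 0.0141), with no filter (2.32, 0.00520) and, at a smaller change, in replicates 1 and 2 only (1.30, 0.0212).

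KRT80 and KRT23 fell early and stayed low. KRT80, a type II keratin of many epithelia, had 276, 207 and 233 CPM with DMSO at 4 h, 127, 105 and 143 CPM with i-BET858 and 117, 105 and 111 CPM with i-BET151. At 24 h the levels were 188, 205 and 173 CPM, 119, 118 and 108 CPM, and 80.6, 88.5 and 94.3 CPM. Treated libraries lay below DMSO at each time. With i-BET151 the log2 fold changes were −1.10 ± 0.14 (adjusted p = 4.11e-04) and −1.10 ± 0.10 (adjusted p = 2.46e-05). The first of them was −0.98 without DMSO replicate 1. For i-BET858 they were −0.93 ± 0.14 (adjusted p = 4.84e-04) and −0.71 ± 0.10 (adjusted p = 2.36e-04). This 4 h value passed 2-fold when scaled to library totals (−1.09) and in replicates 1 and 2 only (−1.05). It also did so without DMSO replicate 2 (−1.03) or i-BET858 replicate 3 (−1.04). KRT23, a type I keratin, had 12.5, 13.4 and 12.6 CPM with DMSO at 24 h, 8.22, 8.02 and 6.13 CPM with i-BET858 and 4.89, 4.91 and 4.04 CPM with i-BET151. Its 4 h levels were 17.1, 17.4 and 15.4 CPM, 9.79, 9.82 and 7.93 CPM, and 8.15, 7.002 and 9.498 CPM in the same order. The 24 h groups were separate from each other. i-BET151 changed KRT23 by −1.02 ± 0.18 at 4 h (adjusted p = 0.00314) and −1.47 ± 0.18 at 24 h (adjusted p = 1.39e-04). The 4 h value was −0.999, −0.986 and −0.917 without DMSO replicate 1, DMSO replicate 2 or i-BET151 replicate 2, all just short of 2-fold. The i-BET858 values were −0.86 ± 0.18 (adjusted p = 0.00383) and −0.78 ± 0.17 (adjusted p = 0.00424).

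KRT5, the basal keratin of stratified epithelia, and the hair keratin KRT83 were called at 24 h on few counts. KRT5 had 14, 8 and 52 counts with DMSO, 7, 12 and 15 under i-BET858 and 4, 1 and 0 under i-BET151. Relative to the library totals, its summed counts were 17.6 times lower under i-BET151 (95% exact interval 7.23 to 56.0, counting error only), and DMSO replicate 3 held 52 of the DMSO counts. The fitted log2 change of −4.06 (adjusted p = 0.0169) became −2.87 (adjusted p = 0.0809) without that library, and the adjusted p was 0.0735 without i-BET151 replicate 2. KRT83 had 45, 38 and 24 counts with DMSO, 0, 2 and 0 under i-BET858 and 3, 4 and 25 under i-BET151. The sum was 71.9 times lower with i-BET858 (19.4 to 601; adjusted p = 0.00390). The i-BET151 change was not called (−1.89 ± 0.96, adjusted p = 0.156), and its replicate 3 stood close to the DMSO libraries; without it the change was −3.55 (adjusted p = 0.0167). Its copies KRT81 and KRT86 are close in sequence. Of 5 markers of keratinocyte differentiation, IVL, SPRR1A and SPRR1B had no count and LORICRIN at most 0.0711 CPM, while FLG, which made up nearly all of the list, summed with them to 97.0 to 258 CPM with DMSO, 317 to 480 CPM with i-BET858 and 326 to 435 CPM with i-BET151 at 24 h. Whether this bears on the keratins was not tested.

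DSC2, the desmocollin of simple epithelia, was the one desmosomal cadherin called by the test. At 4 h it had 300, 268 and 391 CPM with DMSO, 150, 134 and 245 CPM with i-BET858 and 145, 117 and 197 CPM with i-BET151. At 24 h the values were 252, 244 and 268 CPM, 116, 100 and 133 CPM, and 110, 125 and 143 CPM. Treated and DMSO libraries did not overlap at either time. At 24 h DSC2 changed by −1.13 ± 0.13 on the log2 scale under i-BET858 (adjusted p = 5.45e-05) and by −1.01 ± 0.13 under i-BET151 (adjusted p = 1.77e-04). At 4 h they were −0.86 ± 0.25 (adjusted p = 0.0205) and −1.06 ± 0.25 (adjusted p = 0.0133). The i-BET858 value at 4 h passed 2-fold without i-BET858 replicate 3 (−1.17, adjusted p = 0.00206) and with scaling to library totals (−1.02). The i-BET151 values sat on the 2-fold line: without i-BET151 replicate 2 or DMSO replicate 3 the 4 h value was −0.90 and −0.89 (adjusted p = 0.0538 and 0.0498), and the 24 h value was −0.93 without i-BET151 replicate 1, −0.96 without DMSO replicate 3 and −0.997 without i-BET858 replicate 3.

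DSG2, the desmoglein partner of DSC2 in simple epithelia, did not follow it. It had 137, 127 and 166 CPM with DMSO at 24 h, 138, 110 and 138 CPM with i-BET858 and 125, 149 and 136 CPM with i-BET151. At 4 h the levels were 163, 145 and 188 CPM, 127, 139 and 209.7 CPM, and 140.04, 103 and 187 CPM. The groups overlapped at both times. The 24 h log2 differences were −0.15 (95% confidence interval −0.45 to 0.14) and −0.07 (−0.36 to 0.23), intervals that do not reach a 2-fold change. DSC3 had 26.8, 25.2 and 38.1 CPM with DMSO at 24 h, 13.7, 11.04 and 27.5 CPM with i-BET858 and 13.4, 15.5 and 28.8 CPM with i-BET151. Its groups overlapped through replicate 3 and its changes of −0.79 ± 0.36 and −0.64 ± 0.36 did not pass (adjusted p = 0.108 and 0.203), while with the blocking factor they passed at less than 2-fold (2.18e-04 and 0.00139). DSC3 was called lower under i-BET858 in replicates 1 and 2 only (−1.07, adjusted p = 1.85e-05) and without i-BET858 replicate 3 (−1.26, adjusted p = 0.0127). It was also called lower under i-BET151 without i-BET151 replicate 3 (−1.06, adjusted p = 0.0478). At 4 h DSC3 had 33.2, 31.6 and 58.5 CPM, 27.3, 28.5 and 50.8 CPM, and 23.0, 23.4 and 40.0 CPM, and its groups overlapped. Within replicate numbers it was then 1.22, 1.11 and 1.15 times lower with i-BET858 and 1.45, 1.35 and 1.46 times lower with i-BET151. DSC1 at 24 h had 2.12, 1.79 and 3.55 CPM with DMSO, 1.24, 0.841 and 2.89 CPM with i-BET858 and 0.696, 1.32 and 0.927 CPM with i-BET151 (−1.34 ± 0.50, adjusted p = 0.0628; −1.26 and 0.0308 with the block, which calls it). DSC1 was also called with DESeq2 (−1.37, adjusted p = 0.0275), with no filter (0.0396), with at least 10 counts in every library (0.0455) when only the groups compared were fitted (0.0418), without i-BET858 replicate 3 (0.0282) and in replicates 1 and 2 only (0.0256). At 4 h DSC1 had 5.02, 2.60 and 4.17 CPM with DMSO, 1.79, 1.94 and 3.89 CPM with i-BET858 and 1.73, 1.32 and 3.396 CPM with i-BET151. These groups overlapped through replicate 3, and in replicates 1 and 2 only DSC1 was called lower under both drugs (−1.02 and −1.31, adjusted p = 0.0301 and 0.0156).

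Counted over the families, a gene was called at an adjusted p under 0.05 and a change of at least 2-fold. With i-BET858 at 4 h, 0 of 35 genes were called, against 14.0% of all genes tested (7.03% higher, 7.00% lower). At the adjusted p alone 9 of the 35 passed, 4 higher and 5 lower, and 11 had an unadjusted p under 0.05. Of all genes, 30.9% passed the adjusted p alone and 40.4% had an unadjusted p under 0.05. DESeq2 called 0 of them as well. Beside those described, the 9 included CLDN12 (−0.64 ± 0.14, adjusted p = 0.00481) and CLDN7 (0.41 ± 0.14, adjusted p = 0.0473; 0.155 when scaled to library totals), chosen after their values were seen. When libraries were scaled to their totals, the median of all genes moved from 0.02 to −0.14, 3 genes of the families were called lower (KRT80, KRT23 and DSC2), and the share of higher genes among all called went from 50.1 to 37.4%. With i-BET151 at 4 h, 5 of 35 were called, all lower (CLDN1, KRT80, KRT23, KRT16 and DSC2), where 7.07% of all genes were called and 2.97% were called lower and 4.10% higher.

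At 24 h, i-BET858 called 9 of 32 genes (28.1%), 2 higher and 7 lower, where 18.8% of all genes were called, 7.64% higher and 11.1% lower. With i-BET151, 12 of 32 (37.5%) were called, 1 higher and 11 lower, against 13.6% of all genes, 5.57% higher and 8.07% lower. The median log2 change was −0.49 for i-BET858 and −0.54 for i-BET151, beside −0.01 and 0.00 for all genes. By family, i-BET151 at 24 h lowered 3 of 12 claudins, 4 of 8 type I keratins, 3 of 8 type II keratins and 1 of 4 desmosomal cadherins. The corresponding numbers with i-BET858 were 3, 2, 1 and 1. Genes enter the test through the group in which they are high, so these counts describe the genes with enough reads and not the whole families. Both comparisons share the same DMSO libraries.

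**Figure D3:**
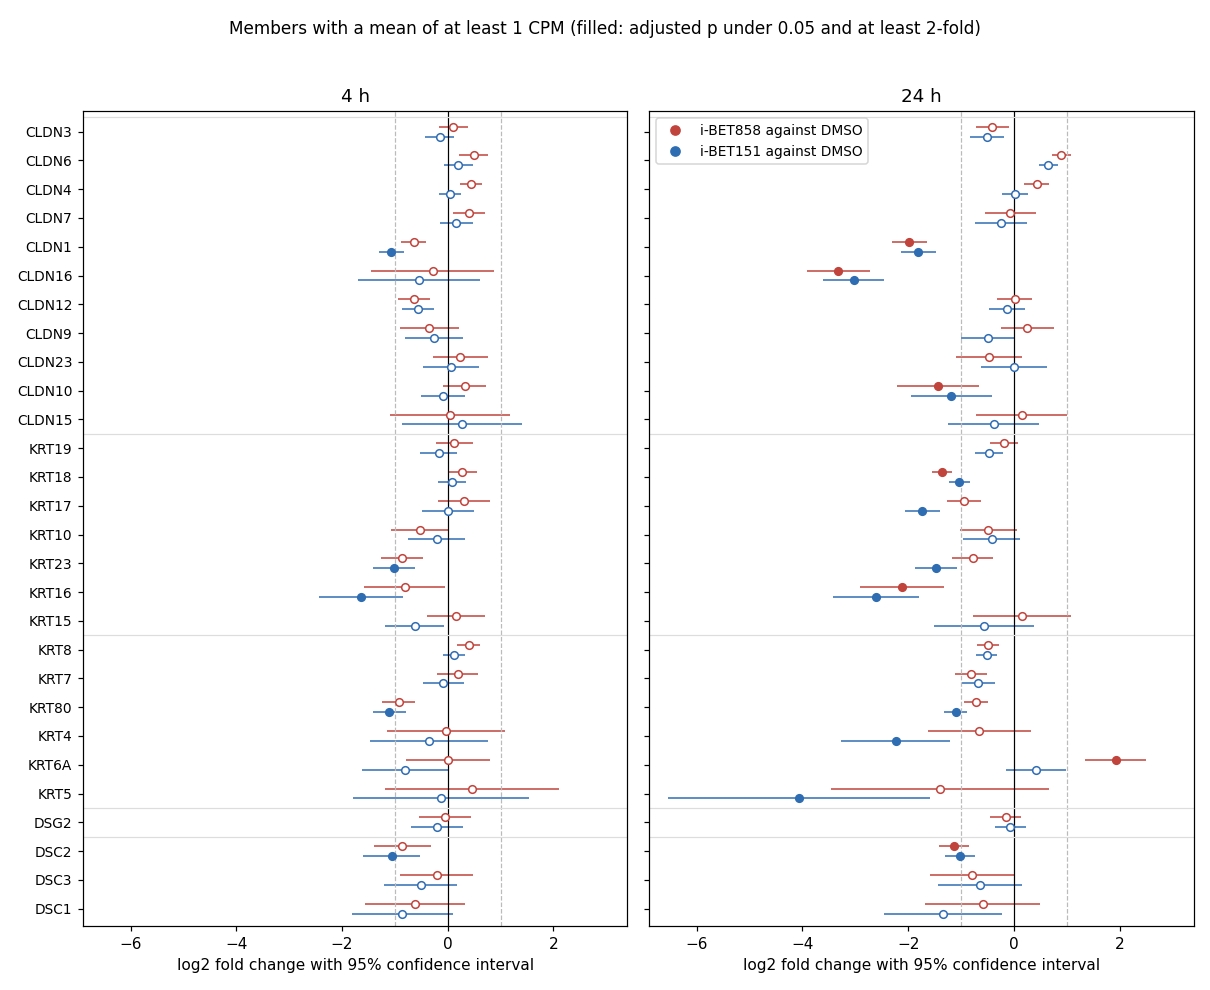
Log2 fold changes against DMSO (horizontal axes, with 95% confidence intervals) of the 28 genes with a mean of at least 1 CPM over the 18 libraries, at 4 h (left) and 24 h (right), ordered by family and TPM. Red is i-BET858 and blue i-BET151, filled points are called, and dashed lines mark a 2-fold change; at 24 h most called points lie left of 0 and KRT6A with i-BET858 lies right of it.

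The direct comparison of i-BET858 with i-BET151 at the same dose asked whether the drugs differed in these genes. With edgeR 0 of 35 genes at 4 h and 0 of 32 at 24 h were called, where 0.204% and 0.0641% of all genes were, and p-values were adjusted over all genes tested. At an unadjusted p under 0.05 there were 8 genes at 4 h, all higher with i-BET858, and 13 at 24 h, 11 of them higher, where 11.9% and 11.4% of all genes had such a p. DESeq2 called 0 at 4 h and 1 at 24 h (KRT6A), beside 0.648% and 0.511% of all genes. The split of all called genes moved with the scaling. At 4 h 45.7% of them (16 of 35) were higher with i-BET858, and the same with the size factors of DESeq2. Scaled to library totals the share was 22.8% (13 of 57). At 24 h 36.4% (4 of 11) were higher. The share was then 66.7% (4 of 6) with the size factors of DESeq2 and 29.4% (5 of 17) when scaled to library totals.

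When the replicate number entered as a blocking factor, an alternative chosen for single genes after the data were seen, 2 of 32 genes were called at 24 h, where the same blocked test called 0.356% of all genes. KRT6A was higher with i-BET858 than with i-BET151 by 1.501 ± 0.257 on the log2 scale (95% confidence interval 0.93 to 2.07; adjusted p = 0.0530 without and 1.42e-04 with the block). In replicates 1, 2 and 3 it was 2.67, 3.05 and 2.78-fold higher. KRT4 was higher by 1.59 ± 0.46 without the block (0.58 to 2.60, adjusted p = 0.196). With it, KRT4 was higher by 1.62 (adjusted p = 8.15e-06). Within replicates KRT4 was 2.95, 3.48 and 2.85-fold higher. For both genes every replicate had the same direction, and both were also called with no filter and in replicates 1 and 2 only.

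A further 6 genes passed the adjusted p at 24 h with the block, at less than 2-fold, which made 8 of 32 beside 4.54% of all genes. KRT17 (0.79 ± 0.15; blocked adjusted p = 0.00970), KRT23 (0.69 ± 0.18; 0.0273), CLDN4 (0.41 ± 0.11; 0.0123), KRT80 (0.39 ± 0.10; 0.0280) and KRT19 (0.28 ± 0.12; 0.0306) were higher with i-BET858. KRT18 was lower (−0.33 ± 0.09; 0.0145). Without the block their adjusted p-values were 0.0682 to 0.397, and the changes, SE and intervals of this paragraph are from that fit. At 4 h 7 of 35 genes passed with the block, beside 9.89% of all genes, all higher with i-BET858 and under 2-fold, with CLDN1 (0.42 ± 0.11; 0.00315) and CLDN4 (0.39 ± 0.09; 0.00255) lowest in adjusted p. For some genes the interval of the drug difference lay inside the 2-fold lines, which does not exclude a smaller difference. The difference at 24 h was −0.17 (−0.50 to 0.16) for CLDN1, 0.03 (−0.17 to 0.23) for KRT8, −0.12 (−0.39 to 0.16) for DSC2 and −0.29 (−0.86 to 0.28) for CLDN16.

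**Figure D4:**
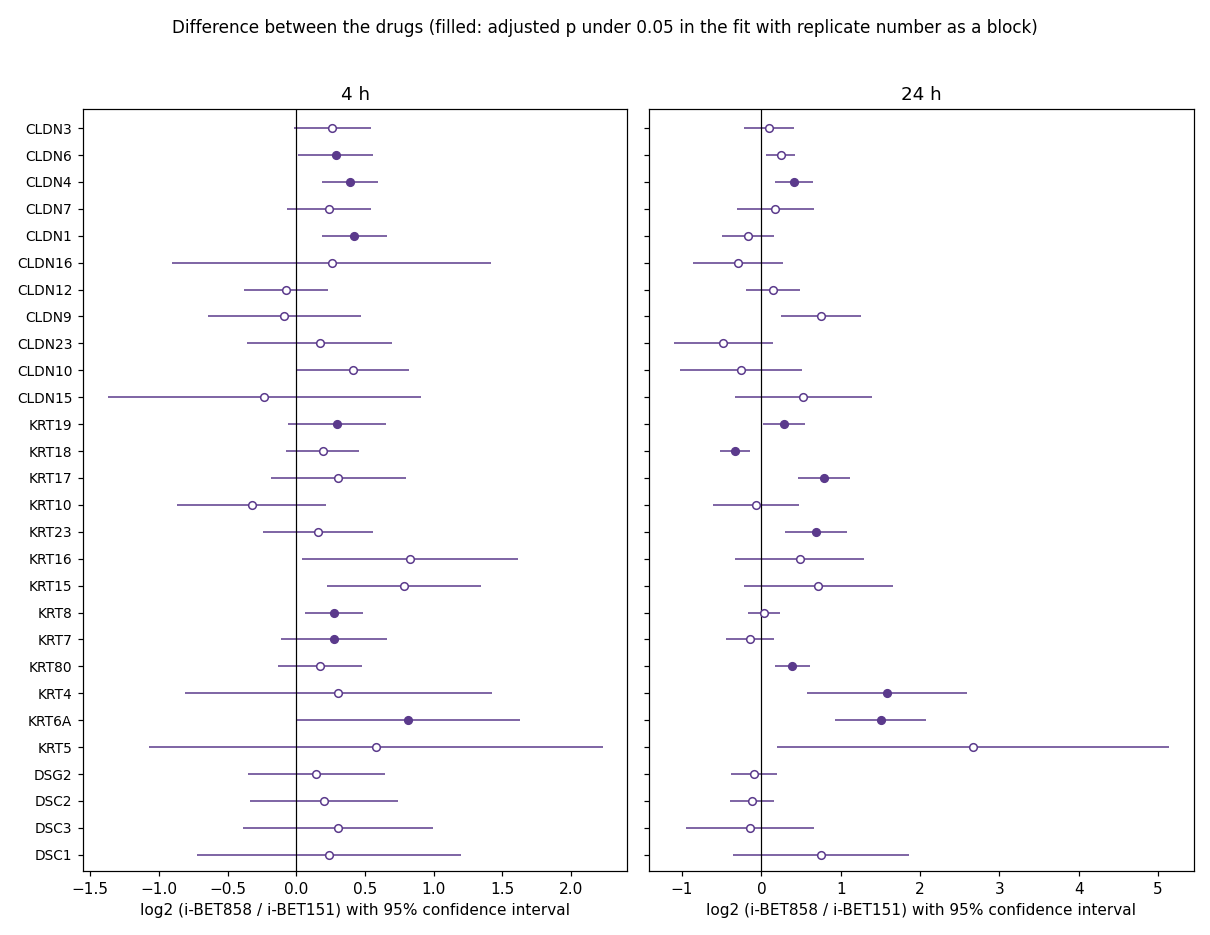
Log2 difference between i-BET858 and i-BET151 (horizontal axes, positive where i-BET858 is higher, with 95% confidence intervals of the fit without block) for the same genes at 4 h (left) and 24 h (right; the axes differ in range). Filled points passed an adjusted p of 0.05 with the replicate number as a blocking factor; at 24 h KRT4 and KRT6A stand at 1.59 and 1.501, and KRT18 is the filled point below 0.

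The change of a drug's effect from 4 to 24 h was tested in a fit of all 18 libraries. For i-BET858, 7 of 36 genes were called, against 15.0% of all genes. KRT18 (−1.60 ± 0.15, adjusted p = 1.41e-06), CLDN1 (−1.29 ± 0.18, adjusted p = 4.91e-05), CLDN16 (−3.00 ± 0.71, adjusted p = 0.00519), CLDN10 (−1.71 ± 0.39, adjusted p = 0.00326), KRT17 (−1.21 ± 0.28, adjusted p = 0.00329) and KRT83 (−4.61 ± 1.37, adjusted p = 0.0173, on few counts) had a more negative effect at 24 h. KRT6A had a more positive one (1.96 ± 0.48, adjusted p = 0.00512). For i-BET151, 3 of 36 were called, against 6.68%: KRT18 (−1.10 ± 0.15, adjusted p = 1.80e-04), KRT17 (−1.72 ± 0.28, adjusted p = 6.69e-04) and CLDN16 (−2.48 ± 0.71, adjusted p = 0.0291). CLDN16 lost its call for i-BET151 when any of 8 libraries was left out: DMSO replicate 1, i-BET151 replicate 1 or i-BET151 replicate 2 at 4 h, or DMSO replicate 1 or 2 or any i-BET151 library at 24 h (adjusted p 0.0633 to 0.0765). KRT18 fell to −0.97 for i-BET151 without DMSO replicate 3 at 4 h, and KRT83 had an adjusted p of 0.0637 or 0.0561 without i-BET858 replicate 1 at 4 or 24 h. The KRT83 value for i-BET858 ranged from −7.12 to −3.70 with 1 library left out. With the block, KRT16 was added for i-BET858 (−1.26, adjusted p = 0.0396), and KRT4 (−1.83, 5.97e-08), KRT6A (1.34, 5.98e-04), KRT5 (−3.38, 0.0107) and CLDN10 (−1.07, 0.0346) for i-BET151, where the block called 17.7% and 9.04% of all genes. Time points were measured in separate tables with their own DMSO libraries. Of the 5 genes called at both times with i-BET151, CLDN1 had a more negative effect at 24 h by the adjusted p, at less than 2-fold (−0.72 ± 0.18, adjusted p = 0.0120). The changes of KRT16 (−0.95 ± 0.49), KRT23 (−0.44 ± 0.25), KRT80 (0.02 ± 0.18) and DSC2 (0.07 ± 0.30) did not pass (adjusted p 0.226 to 0.969).

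The partners of these genes in the junctions and filaments were followed in lists chosen with results of these data known. Of the 9 desmosomal plaque and associated genes, such as DSP, JUP and PKP3, edgeR called 0 in any comparison with DMSO (9 tested at 4 h, 8 at 24 h), with 1 at an unadjusted p under 0.05 in each 4 h comparison and 5 in each 24 h comparison. Of all genes, 40.4% (i-BET858) and 29.5% (i-BET151) had such a p at 4 h, and 49.0% and 43.3% at 24 h. Of 14 other tight junction genes, ILDR1, a component of tricellular junctions, was the one called (−1.06 ± 0.30 with i-BET858 at 4 h, adjusted p = 0.0181). Of 13 adherens junction genes, CDH1, which encodes E-cadherin, rose with i-BET858 at 24 h from 230 ± 12.1 to 486 ± 82.5 CPM (SD, n = 3; log2 1.08 ± 0.14, adjusted p = 1.47e-04). NECTIN1 rose in all 4 comparisons with DMSO (1.24 to 2.03), and NECTIN4 fell at 4 h (−2.04 ± 0.20 and −1.94 ± 0.20).

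Among 12 other intermediate filament genes, 3 rose in all 4 comparisons with DMSO. NEFH, the heavy neurofilament chain, rose from 1.80 ± 0.195 to 38.9 ± 10.1 CPM with i-BET858 and 16.8 ± 4.66 CPM with i-BET151 at 4 h (4.43 ± 0.28 and 3.22 ± 0.27 on the log2 scale). It was also higher with i-BET858 than with i-BET151 at that time (1.21 ± 0.24, adjusted p = 0.0422). INA, another neuronal filament, rose by 1.36 to 2.04 and SYNM, which links filaments, by 1.61 to 3.27 on the log2 scale. Of 17 epithelial transcription factors, i-BET858 at 4 h raised 3 (KLF4, OVOL1 and SNAI1) and lowered 3 (EHF, ESRP2 and OVOL2). In the same 4 h test i-BET151 raised 2 (KLF4 and SNAI1) and lowered 3 (EHF, OVOL2 and GRHL3, the last by −1.24 ± 0.23). At 24 h EHF (−2.62 ± 0.65 and −2.65 ± 0.65) and GRHL3 (−1.28 ± 0.28 and −1.45 ± 0.29) were lowered by both drugs. Over the 65 genes of these lists, 12 of 58 tested were called with i-BET858 at 4 h and 7 of 57 at 24 h, and 10 of 58 and 6 of 57 with i-BET151. The shares of all genes called were 14.0% and 18.8%, and 7.07% and 13.6%.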

How the data were processed

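Poly-A RNA of 18 OVCAR-3 libraries was measured. Per the labels and the study's methods, the authors used FastQC for read quality and STAR for alignment to GRCh38, and deposited the raw count of reads per gene from STAR. The annotation release and strand setting are not given in the sources used here. The time point of each of the tables was read from the table's name, and the columns from the labels. Genes were matched by identifier to GENCODE 44 for type, position and exon length (58472 of 58825).

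Counts were analysed as deposited with edgeR 4.0.16 (R 4.3.3, limma 3.58.1): TMM scaling, filterByExpr by group, the quasi-likelihood test on the 9 libraries of a time point in 1 fit, and Benjamini-Hochberg adjustment over all genes tested (17192 at 4 h, 17157 at 24 h). A gene was called at an adjusted p under 0.05 and a change of at least 2-fold. The change of an effect from 4 to 24 h was tested in a fit of all 18 libraries over 18154 genes. SE and 95% confidence intervals came from the same fits. The calls of the test were tested on simulated 4 h libraries, with the same dispersion for all genes and no replicate effect. Only well-counted genes were changed there, so that simulation does not cover calls on few counts. Library totals of 27323969 to 46299994 counts set the precision, and exact Poisson intervals cover counting error only.

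The genes and all lists were chosen with earlier results of these data known. Values in every library are given for called genes whose average log2 CPM was 0 or more and for the 3 highest by TPM in each family (DSG1 and DSG3 by their highest count). Same-numbered libraries deviated together, with correlations of 0.141 to 0.365 over 9 pairs at 4 h and 0.161 to 0.352 at 24 h. For different numbers they were −0.341 to 0.233 and −0.329 to 0.326. These ranges overlapped, and replicate 3 stood apart in every condition, so the values do not settle whether each number pairs the samples. The fits reported carry no block unless stated, since the study's methods name none. With the block, more of all genes passed the adjusted p between the drugs. The shares were 9.89% against 1.00% at 4 h and 4.54% against 0.227% at 24 h. Alternatives were DESeq2 1.42.0, its size factors, scaling to library totals, no filter or at least 10 counts in every library, only the groups compared, the replicate block, each library left out, replicates 1 and 2 only, and the adjusted p alone. The block for the drug difference in single genes was added after seeing the data. Promoter bases were RefSeq's (GRCh38.p14), and a protein table was not used here.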

Additional observations from a re-analysis of the deposited data

Results flagged for a closer look

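A drug's effect differed between 4 and 24 h, by a test of the difference itself, in 10 cases among the claudins and keratins. These were 7 of 36 genes (19.4%) for i-BET858, where 15.0% of all genes were called. They were 3 of 36 (8.33%) for i-BET151, where 6.68% of all genes were. Both counts lay near the shares of all genes and do not set these families apart. For i-BET858 the change of the log2 effect was −1.29 for CLDN1, −3.00 for CLDN16, −1.71 for CLDN10, −1.60 for KRT18, −1.21 for KRT17 and −4.61 for KRT83, and 1.96 for KRT6A. For i-BET151 it was −2.48 for CLDN16, −1.10 for KRT18 and −1.72 for KRT17. All adjusted p-values, from edgeR's quasi-likelihood test in the fit of all 18 libraries, were under 0.05. The cause was not tested, and the time points have separate DMSO libraries.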

How the results depend on the processing

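The values of the genes called kept their direction in all 637 alternatives run. Of these, 605 kept the call, and 24 of the 36 values kept it in every alternative in which the gene was tested. CLDN5, KRT5 and KRT83 at 24 h were not tested with at least 10 counts in every library, nor KRT5 when only the groups compared were fitted. Shares of all genes under the same setting stand in brackets. With 1 library left out, the shares of all genes called were 11.5 to 15.2% (i-BET858) and 5.39 to 8.03% (i-BET151) at 4 h. They were 16.4 to 20.2% and 10.9 to 14.4% at 24 h, and 0.00558 to 0.0845% between the drugs at 24 h. For the change from 4 to 24 h they were 12.7 to 15.3% for i-BET858 and 4.70 to 6.89% for i-BET151. The number called for i-BET858 at 4 h, 0 by edgeR, was 9 at the adjusted p alone [30.9%], 3 with scaling to library totals [15.3%], 3 in replicates 1 and 2 only [19.4%], and 0 to 2 with 1 library left out. For i-BET858 at 24 h the 9 became 17 at the adjusted p alone [41.7%], 11 in replicates 1 and 2 only [24.1%] (adding KRT13, KRT17 and DSC3 and losing CLDN10), 10 with the replicate block [20.1%], DESeq2 [17.6%] or no filter [10.7%] (KRT13 added in each), 10 with scaling to library totals [18.8%] (KRT17 added), 7 with at least 10 counts in every library [19.2%] and 9 to 10 with 1 library left out. For i-BET151 at 4 h the 5 became 8 in replicates 1 and 2 only [10.9%] and 3 to 6 with 1 library left out. For i-BET151 at 24 h the 12 became 17 at the adjusted p alone [33.8%], 15 with DESeq2 [13.5%] (adding KRT81, KRT3 and DSC1), 13 with the replicate block [15.1%] and 9 to 13 with 1 library left out. Between the drugs at 24 h, the 0 became 2 with the replicate block [0.356%], 2 with no filter [0.192%], 2 in replicates 1 and 2 only [0.619%], 1 with scaling to library totals [0.0991%], 1 with at least 10 counts in every library [0.102%], 1 with DESeq2 [0.511%], and 0 to 1 with 1 library left out. For the change from 4 to 24 h the 7 of i-BET858 became 11 at the adjusted p alone [27.3%], with 6 to 9 when 1 library was left out, and the 3 of i-BET151 became 6 at the adjusted p alone [14.0%], 7 with the replicate block [9.04%] and 2 to 5 with 1 library left out. Among single calls, CLDN5 with i-BET151 at 24 h also lost its adjusted p (0.0503) when only the groups compared were fitted. The blocked fit changed no call other than those given. The cause of these changes was not tested. Genes under 1 CPM rest on few counts a library, and 3 libraries a group of a single cell line limit what can be told apart.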
